A study of Mus musculus with 3 samples.

Results

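The posterior genes of the HoxD cluster and the gene-poor region in front of them, called the digit landscape here, were described from 2 lists of chromatin immunoprecipitation (ChIP-seq) peaks. The genes were the 5 posterior Hox genes Hoxd9, Hoxd10, Hoxd11, Hoxd12 and Hoxd13, together with Evx2, a homeobox gene read in the opposite direction next to Hoxd13, and Lnp, an unrelated gene further out that codes for a membrane protein of the endoplasmic reticulum. The landscape was taken from position 73653777 of chromosome 2 to the start of Hoxd13 at 74506367, a stretch of 853 kb (mouse build mm9). Every peak that touched a span of these 7 genes, lay within 1 kb of one of their starts or touched the landscape was taken, which gave 39 of the 20479 RNAP2 peaks and 60 of the 10634 Med12 peaks. No peak score or read count entered this choice.

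The peaks came from the distal forelimbs of mouse embryos at E12.5 (embryonic day), dissociated into single cells and fixed with formaldehyde. No strain, allele or treatment was named for these embryos. One library was made with an antibody against RNA polymerase II (RNAP2) and 1 with an antibody against Med12, a subunit of the kinase module of the Mediator complex, which joins transcription factors at enhancers to RNAP2 at promoters. With 1 library per antibody no value below has a replicate error, and every comparison is a description of these 2 libraries; how many embryos went into each was not given in the sources used here. An input library of the same tissue had no peak list here. Each peak carries a score, which is 10 times −log10 of the p-value that the peak caller gave it. The lowest listed score of 40 stands for 1e-04 and a score of 50 for 1e-05. Scores grow with the depth of a library and were used only to order peaks within a list. The read depth behind a peak is not in these lists, and intervals given below cover the counting of peaks only.

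Hox genes code for transcription factors and lie in clusters in the order in which they act along the body and the limb. In the limb the genes at the Hoxd13 end of the HoxD cluster are switched on in a late phase in the presumptive hand and foot, where Hoxd13 together with Hoxa13 is needed for digits to form. This late phase is known to depend on many enhancers spread over the gene-poor region on the Hoxd13 side, which also act on Evx2 and Lnp, while the opposite flank of the cluster serves the earlier phase in the upper and lower arm. Mediator and RNAP2 are both found at active enhancers as well as at promoters, and RNAP2 is also found along the body of genes while they are being read.

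The sequences under the distal sites with the strongest Med12 peaks are shown first, since the landscape's side of the description rests on such sites. Each is 300 bases from the middle of the stretch shared by an RNAP2 and a Med12 peak, on the plus strand of mm9, named by its distance to the Hoxd13 start. They lie at chr2:74457903-74458202, chr2:73913179-73913478, chr2:74231197-74231496 and chr2:74110176-74110475 in this order, and all 4 are intergenic. Capitals mark a match to CAATAAA, a motif of posterior HOX proteins, or to TATAAA, the core of the TATA box, on either strand.

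46.6 kb before Hoxd13: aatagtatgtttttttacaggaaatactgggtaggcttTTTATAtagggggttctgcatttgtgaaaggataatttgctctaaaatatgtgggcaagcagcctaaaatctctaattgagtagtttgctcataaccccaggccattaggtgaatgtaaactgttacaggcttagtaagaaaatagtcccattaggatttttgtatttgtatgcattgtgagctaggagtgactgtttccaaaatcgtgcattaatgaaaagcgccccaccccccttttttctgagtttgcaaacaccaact
592 kb before Hoxd13: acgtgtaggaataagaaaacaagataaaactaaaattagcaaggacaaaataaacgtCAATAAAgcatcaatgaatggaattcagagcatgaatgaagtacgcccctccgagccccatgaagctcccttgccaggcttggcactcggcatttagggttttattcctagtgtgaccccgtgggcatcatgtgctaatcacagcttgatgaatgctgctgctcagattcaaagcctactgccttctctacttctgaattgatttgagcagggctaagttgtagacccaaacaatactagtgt
274 kb before Hoxd13: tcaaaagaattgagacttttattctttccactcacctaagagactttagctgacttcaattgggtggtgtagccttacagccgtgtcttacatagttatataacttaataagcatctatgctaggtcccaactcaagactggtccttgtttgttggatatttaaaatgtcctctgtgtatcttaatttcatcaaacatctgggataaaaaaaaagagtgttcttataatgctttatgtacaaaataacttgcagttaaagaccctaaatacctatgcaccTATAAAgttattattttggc
394 kb before Hoxd13: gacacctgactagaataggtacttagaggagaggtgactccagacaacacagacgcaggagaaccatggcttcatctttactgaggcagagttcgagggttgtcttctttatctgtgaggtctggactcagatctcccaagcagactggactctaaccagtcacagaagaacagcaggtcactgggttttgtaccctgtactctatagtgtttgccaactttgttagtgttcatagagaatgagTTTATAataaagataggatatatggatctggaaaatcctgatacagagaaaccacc

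The site 592 kb before Hoxd13 held CAATAAA at positions 58 to 64, counted from the first base shown. The other 3 held TATAAA instead, at positions 281 to 286 in the site 274 kb before Hoxd13 and on the minus strand in the remaining pair. Among all 15 distal sites of the landscape with both proteins, CAATAAA was found in 3 and TATAAA in 5 of the central windows of up to 300 bases. Across the 2669 such sites of the genome the shares were 15.9% and 35.1%. TCGTAAA, the other form of the posterior HOX motif searched, and GACCACCCA, the motif of GLI factors, were in none of the 15 and in 1.87% and 0.150% of all such sites. No motif of the 4 contains another. The windows of the landscape had a median GC content of 41.0% and a median CpG ratio (observed over expected) of 0.19, against 43.0% and 0.26 over all distal sites with both. Over the whole shared stretches of the 15 sites the medians were 40.5% and 0.260. Whole stretches were not measured over all distal sites, so these medians have no genome value beside them.

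At 3 of the 7 genes a Med12 peak lay within 1 kb of the start, and the 250 bases before those starts are given in the direction of each gene. Only the stretch before Hoxd11 lies under its Med12 peak, since the peaks of Hoxd9 and Lnp lie inside the genes. They are chr2:74535487-74535736 on the plus strand for Hoxd9, chr2:74517199-74517448 on the plus strand for Hoxd11 and chr2:74417493-74417742 on the minus strand for Lnp.

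Hoxd9: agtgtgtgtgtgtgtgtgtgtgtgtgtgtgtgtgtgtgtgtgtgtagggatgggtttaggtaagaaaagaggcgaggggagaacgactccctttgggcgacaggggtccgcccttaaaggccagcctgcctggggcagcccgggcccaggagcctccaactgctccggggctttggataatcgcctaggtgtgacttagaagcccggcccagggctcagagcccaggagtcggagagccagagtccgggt
Hoxd11: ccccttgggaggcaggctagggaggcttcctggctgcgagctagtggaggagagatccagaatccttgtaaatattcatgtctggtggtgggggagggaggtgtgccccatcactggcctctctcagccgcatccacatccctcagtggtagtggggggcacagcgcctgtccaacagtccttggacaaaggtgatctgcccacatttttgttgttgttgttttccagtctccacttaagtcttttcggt
Lnp: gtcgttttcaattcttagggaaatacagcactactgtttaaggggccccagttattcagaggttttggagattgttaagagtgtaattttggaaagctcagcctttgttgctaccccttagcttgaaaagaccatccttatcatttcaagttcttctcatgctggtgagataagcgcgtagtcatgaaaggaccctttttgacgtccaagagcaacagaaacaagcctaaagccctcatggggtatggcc

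None of the 4 motifs was in these 3 stretches. Over the 7 genes TATAAA was found once, before Hoxd13, against 12.3% of the promoters of all coding genes, and CAATAAA was found before none, against 3.84% of all. TCGTAAA and GACCACCCA were also absent from the 7 windows and present in 0.532% and 0.197% of all promoters. The stretch before Hoxd13 had the highest GC content of the 7, at 74.4% with a CpG ratio of 0.94, and that before Hoxd10 the lowest, at 38.8% with a CpG ratio of 0.53. Evx2 had 42.4% GC and a CpG ratio of 0.80, so the 2 neighbouring promoters that face away from each other differed in base composition. The median over the 7 was 53.6% GC and a CpG ratio of 0.51, close to the 54.0% and 0.50 of all promoters.

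RNAP2 peaks lay over the start of every one of the 7 genes, each covering the start itself. A peak within 1 kb of the start was found for 40.0% of the 22367 coding genes in the annotation. Within the cluster these were not separate promoter peaks but wide domains that ran over several genes, as the plot of peaks from Evx2 to Hoxd9 shows. The first domain, at 74486472-74500579, was 14108 bp wide with a score of 1019.12 and covered all of Evx2. A second of 2331 bp, with a score of 737.29, lay in the middle of the interval between Evx2 and Hoxd13. The third, at 74503845-74514259, was 10415 bp wide with a score of 1854.76 and held Hoxd13 whole and the start of Hoxd12.

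The fourth domain, at 74514479-74531303, was the widest of the cluster, at 16825 bp, with a score of 2606.21. It held the end of Hoxd12, the whole of Hoxd11 and the start of Hoxd10. The fifth, at 74531425-74537537, was 6113 bp wide with a score of 1368.98 and held the start of Hoxd9. Over the end of Hoxd9 followed a shorter peak, of 1503 bp, scored only 54.15. The gaps between these neighbours ran from 121 to 735 bp, and the largest lay in front of Hoxd13.

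**Figure D1:**
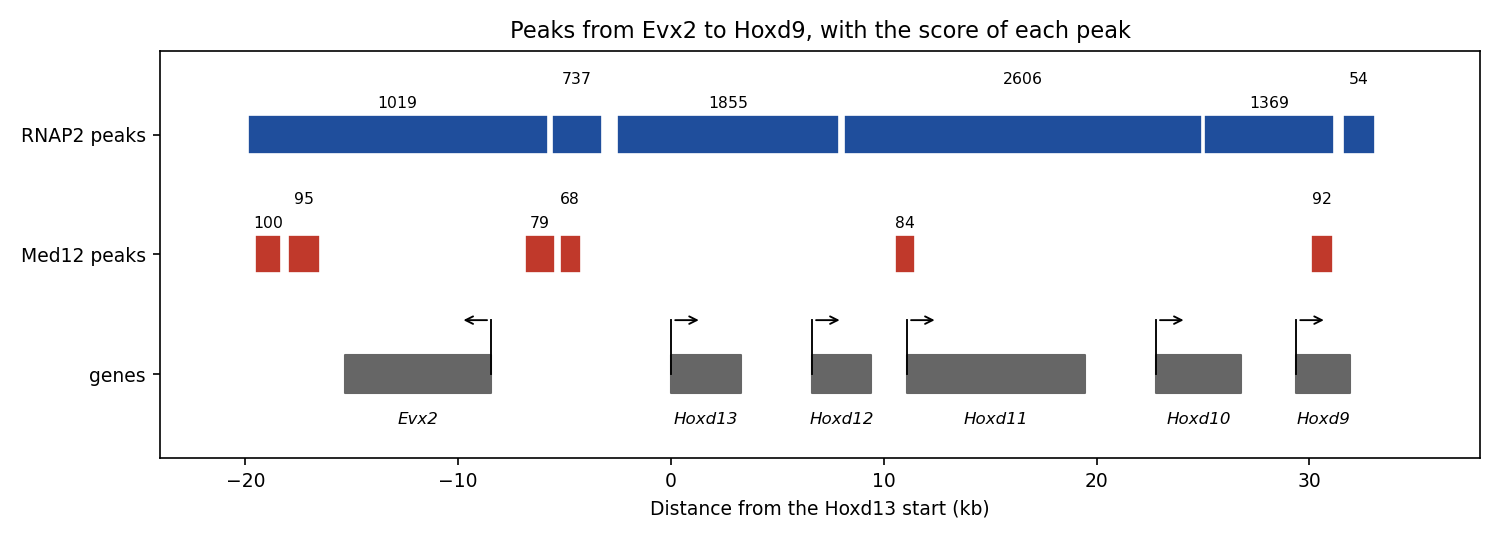
Peaks of RNAP2 and Med12 from Evx2 to Hoxd9 along the distance from the Hoxd13 start in kb; boxes are peaks with their scores above them, grey boxes are gene spans, and arrows mark starts and directions. RNAP2 peaks run almost without a gap from before Evx2 to the end of Hoxd9, while 6 short Med12 peaks with scores between 68.08 and 99.54 lie among them.

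Peaks this wide were rare in the RNAP2 list. Only 31 of the 20479 peaks, 0.151%, were 10 kb or wider, and 3 of the 31 lay here. By width the domain over Hoxd11 ranked 6, that over Evx2 ranked 13, that over Hoxd13 ranked 28 and that over Hoxd9 ranked 139. When peaks separated by at most 1 kb were joined across the genome, the run over the cluster, at 74486472-74545274, ended inside Hoxd8 and was 58803 bp long, with 8 peaks and 95.8% of its length covered. It was the longest of the 18752 runs; the next were 52764 bp over Tcf4 and 33734 bp over Gli3, which codes for a transcription factor of the hedgehog pathway that acts in digit patterning. The run was picked out after the values were seen, and its rank is a description. That rank was taken at this joining distance and over all scores only. Joined over gaps of up to 500 bp, the run no longer held Evx2 and was 41.4 kb long.

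Gene by gene, RNAP2 peaks covered 100% of the spans of Hoxd13, Hoxd11 and Evx2. They covered 97.0% of Hoxd10 and 92.1% of Hoxd12, where the uncovered bases are the gaps between 2 domains. Hoxd9 followed with 84.3%. Thus 5 of the 7 genes were covered over 90% or more of their span, against 1.18% of all coding genes and 1.09% of the 9357 coding genes of 2 to 20 kb. Since neighbouring genes shared domains, these genes are not separate observations: Hoxd13 and Hoxd12 shared 1 peak at their starts, and Hoxd11 and Hoxd10 shared another.

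The cover ended within the cluster. The block from Hoxd13 to Hoxd9 was under RNAP2 peaks over 97.7% of its 31899 bp, and the block from Hoxd8 to Hoxd1 over 27.9% of its 60529 bp. Hoxd8, next to Hoxd9, had 64.6% of its span covered, Hoxd3 had 31.7%, Hoxd4 had 7.0% and Hoxd1, at the far end, had no RNAP2 peak in its span or within 1 kb of its start. Of the 5 telomeric neighbours counted as a list, Hoxd8, Hoxd4, Hoxd3, Hoxd1 and the mitochondrial transport gene Mtx2, an RNAP2 peak was at the start of 4 and a Med12 peak at that of 0, where the shares over all coding genes were 40.0% and 8.20%. With so few genes, 0 of 5 is near that background for Med12 and is not read as a difference. The scores at the starts were 362.97 for Hoxd8, 391.2 for Hoxd3, 231.06 for Mtx2 and 78.2 for Hoxd4, all below the lowest start score of the 7 genes, 1019.12 at Evx2.

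The posterior part of the HoxA cluster, which includes Hoxa13, the partner of Hoxd13 in the hand, had the same kind of cover. Its block from Hoxa13 to Hoxa9 was under RNAP2 peaks over 96.7% of 37776 bp, within 1 percentage point of posterior HoxD. Posterior HoxC was covered over 15.4% of 63997 bp. Med12 separated the blocks in another way, since its peaks covered 20.6% of posterior HoxA, 6.18% of posterior HoxD and 0% of posterior HoxC and anterior HoxD. The highest Med12 score in posterior HoxA was 662.17, at the start of Hoxa11, and in posterior HoxD 92.44, at Hoxd9.

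**Figure D2:**
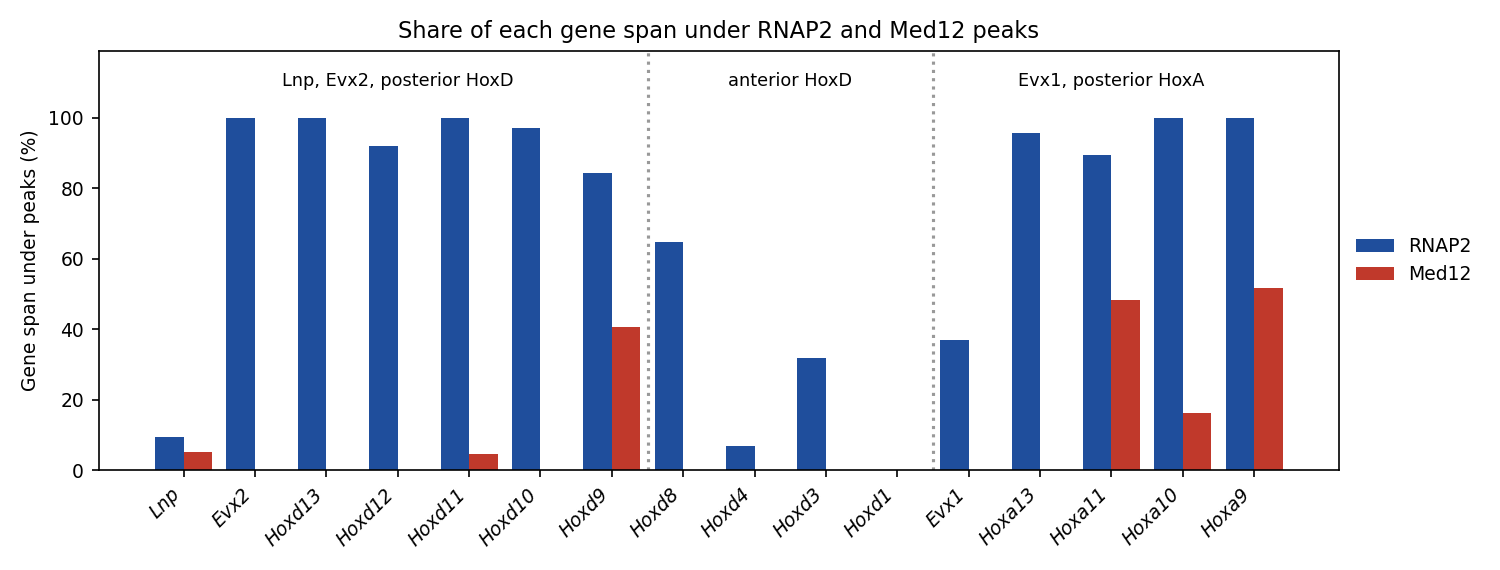
Percent of each gene span under RNAP2 peaks (blue) and Med12 peaks (red) for Lnp, Evx2 and the HoxD genes in genomic order, and for Evx1 and the posterior HoxA genes. RNAP2 covers 84.3% to 100% of the spans from Evx2 to Hoxd9 and falls to 64.6% or less from Hoxd8 on; Med12 covers 40.7% of Hoxd9, 4.5% of Hoxd11 and 5.3% of Lnp and none of the other HoxD genes.

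Med12 peaks lay within 1 kb of the start at 3 of the 7 genes, Hoxd9, Hoxd11 and Lnp, against the 8.20% of all coding genes. All 3 had RNAP2 there too, so 3 of the 7 genes had both proteins at the start, against 7.58% of all coding genes. Of the 1835 coding genes with Med12 at the start, 1696 also had RNAP2 there. RNAP2 at 3 of 3 is near that background and is not read as a difference. At Hoxd9 the Med12 peak, 74536430-74537459 with a score of 92.44, began 693 bp inside the gene and covered 40.7% of its span. At Hoxd11 the peak, 74516885-74517826 with a score of 83.92, covered the annotated start of the gene, which belongs to the noncoding transcript Hoxd11-002. The nearest start of a coding Hoxd11 transcript, Hoxd11-001, lay 2230 bp away, so the count would be 2 of 7 on coding transcripts alone.

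The other 4 genes had their nearest Med12 peak further from the start. It lay 1571 bp from Evx2, 3899 bp from Hoxd12, 4245 bp from Hoxd13 and 7283 bp from Hoxd10. No Med12 peak overlapped the spans of these 4 genes. Within 5 kb, 6 of the 7 genes had one, all but Hoxd10. A start without a listed Med12 peak is a start where the caller's threshold was not met, at a local read depth that the lists do not give, and not one shown to lack the protein.

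Evx2 was flanked by Med12 on both sides. Beyond its end lay a pair of Med12 peaks, at 74486839-74488063 with a score of 99.54 and at 74488385-74489883 with a score of 95, both inside the wide RNAP2 domain of Evx2. Between Evx2 and Hoxd13 lay another pair, at 74499489-74500932 with a score of 78.84 and at 74501147-74502122 with a score of 68.08. The first of these bridged the 199-bp gap between 2 RNAP2 domains. All 6 Med12 peaks from Evx2 to Hoxd9 overlapped RNAP2, and all had scores under 100.

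Lnp differed from the Hox genes in the shape of its RNAP2 signal. Its span of 59145 bp, at 74358348-74417492 on the minus strand, was under RNAP2 peaks over 9.4% and under Med12 peaks over 5.3%. The peak at the start, 74415542-74417702, had a score of 1312.3, above that of Evx2 and near that of Hoxd9. The Med12 peak there, 74416145-74416982, had a score of 43.4, the lowest of the 3 start peaks and under the score of 50. It had 61.8% GC, against 34.9% and 39.2% in the other Med12 peaks of the gene. Because 4930445N08Rik, a noncoding transcript on the plus strand, starts 151 bp from the same Med12 peak and under the same RNAP2 peak, the peaks of the 2 starts cannot be told apart.

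Inside Lnp lay 3 further RNAP2 peaks. A site at 74413564-74415271 with a score of 197.25, in an intron close to the start, overlapped a Med12 peak with a score of 45.38. A pair further in had scores of 72.75 and 51.15 and no Med12 peak within 19 kb. A Med12 peak of 67.19 at 74395674-74396853 had no RNAP2 peak over it. Lnp thus had a strong peak at its promoter and weak ones in its body, where the Hox genes had cover from end to end.

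The genes most like Hoxd13 in cover were found by comparing the percent of each span, with 1 kb on each side, under RNAP2 and under Med12 over the 9356 other coding genes of 2 to 20 kb. In all 9 genes tied at the values of Hoxd13 itself, 100% RNAP2 and 0% Med12. They were Evx2, Msx1, Msx2, Id4, Mab21l2, Hspe1, Oaz1, D4Wsu53e and Gm10000, so the intended 5 nearest could not be chosen among them. Msx1 and Msx2 code for homeobox factors of the distal limb mesenchyme. Short genes can be covered by a single peak, and likeness in 2 values says nothing of shared control.

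The landscape held 36 RNAP2 and 58 Med12 peaks, which covered 8.36% and 8.63% of its length. Of the RNAP2 peaks 5 were within 1 kb of a start, 8 lay in genes and 23 between genes, with a median score of 99.6. Of the Med12 peaks 1 was at a start, 6 in genes and 51 between genes, with a median score of 67.6. A score of 50 was reached by 32 of 36 RNAP2 and 47 of 58 Med12 peaks, and a score of 100 by 18 and 14. Of the RNAP2 peaks 17 of 36 or 47.2% (95% Wilson interval 32.0 to 63.0) overlapped a Med12 peak by at least 1 bp, against 21.7% of all RNAP2 peaks. For Med12 the overlap was 20 of 58 or 34.5% (23.6 to 47.3), and 42.7% of all Med12 peaks, a value inside that interval.

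**Figure D3:**
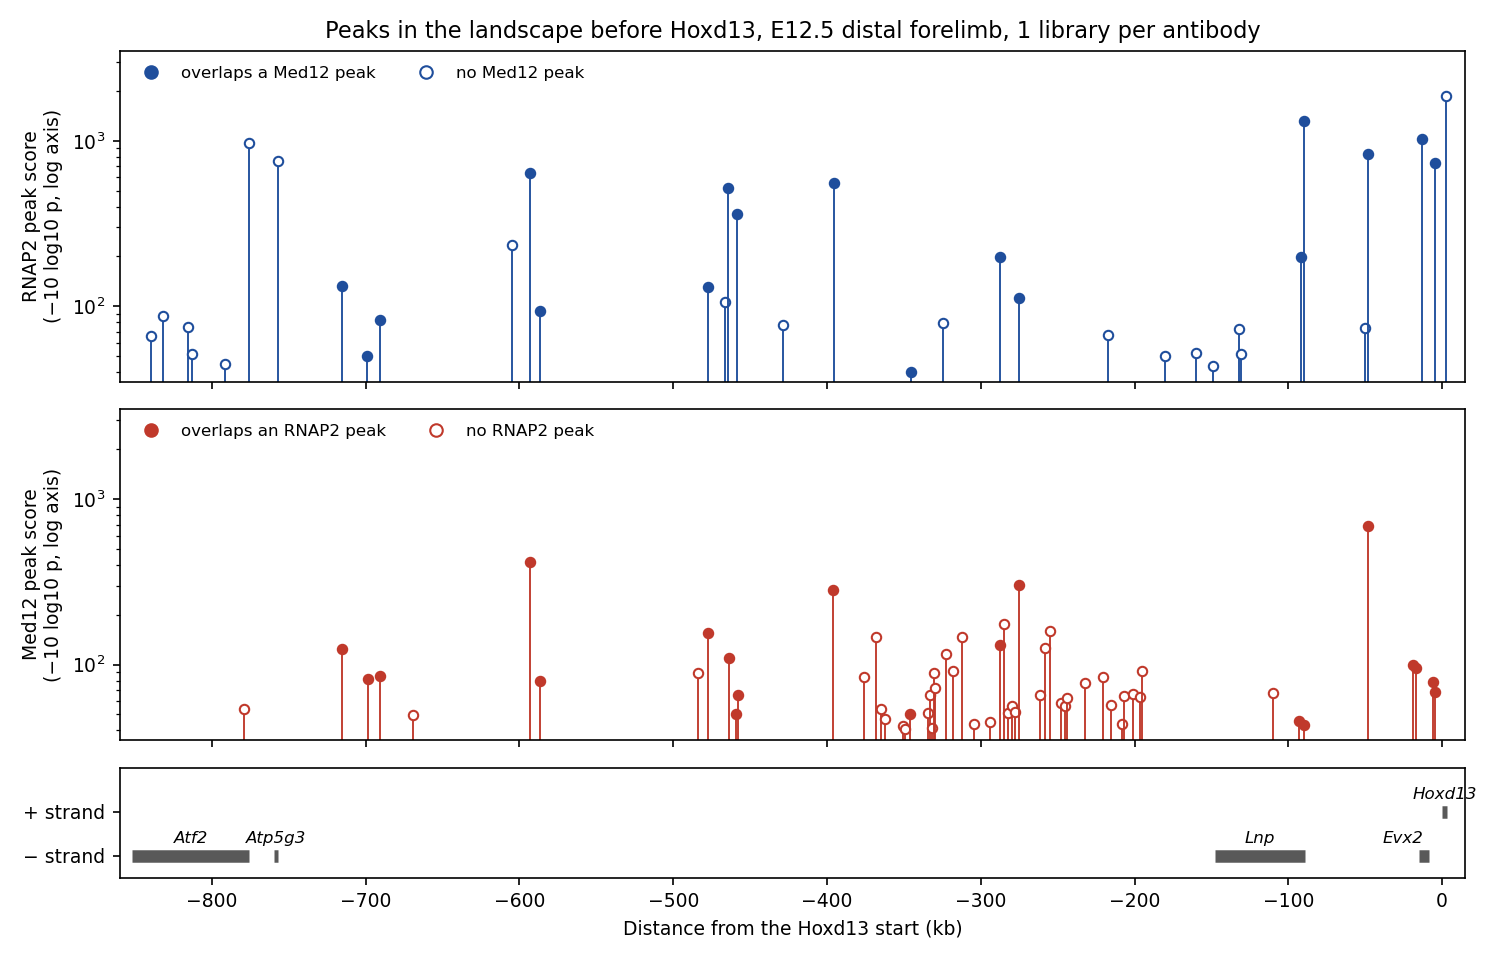
Score of each RNAP2 peak (top) and Med12 peak (middle) on a log axis against the distance from the Hoxd13 start in kb, with the coding genes below; filled points overlap a peak of the other protein and open points do not. Open Med12 points crowd between 376 and 195 kb before Hoxd13, where RNAP2 points are few, and filled points of both lists recur from 715 kb to the cluster.

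Peak centres were then counted in the 3103 windows of the same length that tile the genome. The landscape held 35 RNAP2 centres where the median window held 4, and 24 windows, 0.773%, held as many. It held 58 Med12 centres where the median window held 3. One window held as many, with 59, and that window itself overlapped the landscape and reached past the HoxD cluster. The next highest held 31 and lay on chromosome 6, from 52008052 to 52860642, over HoxA. Windows differ in gene content and in mappable sequence, which were not matched.

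**Figure D4:**
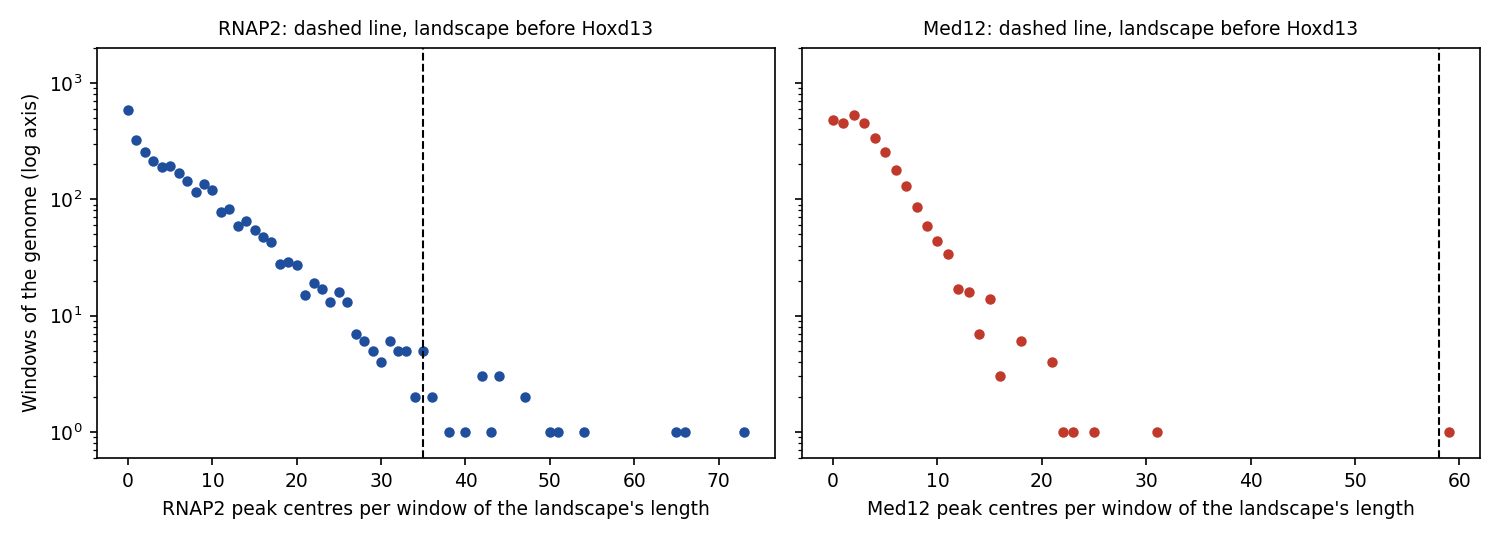
Number of genome windows (log axis) by the number of RNAP2 (left) and Med12 (right) peak centres in each, with windows as long as the landscape; the dashed line marks the landscape. The RNAP2 line at 35 falls within the upper tail, which reaches 73, and the Med12 line at 58 stands beside a single window with 59 and beyond all others, which reach 31.

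In all 14 genes were annotated with their starts in the landscape, 5 of them coding, and RNAP2 was at the start of 7. These were the 5 coding genes, where 40.0% of all coding genes had it, and 2 of the 9 others. The share over all noncoding genes and pseudogenes was not counted. At the far end of the landscape lay Atf2, which codes for a transcription factor of the stress response. Its peak had a score of 965.76 and also covered the start of the lincRNA Gm10822. Atp5g3, which codes for a subunit of the ATP synthase, had a score of 752.99. Neither had Med12 within 1 kb of the start. Of the 7 noncoding genes or pseudogenes with neither protein within 1 kb of the start, 6 were Gm13668, A630050E04Rik, Gm13667, Mrpl23-ps1, Gm13672 and a U6 snRNA. The seventh, 4930441J16Rik, had its start 1145 bp from a Med12 peak and 14810 bp from the nearest RNAP2 peak.

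Away from all starts by more than 1 kb there were 31 RNAP2 peaks, of which 15 (48.4%, 32.0 to 65.2) overlapped Med12. Across the genome 25.0% of the 10692 distal RNAP2 peaks did. Of these 15 distal sites 14 were intergenic and 1 was the intronic site in Lnp. Their RNAP2 scores ran from 40.0 to 828 with a median of 197, and their Med12 scores, taking the higher where there were 2 peaks, from 45.4 to 693 with a median of 110. Over the 2669 such sites of the genome the medians were 137 for RNAP2, with quartiles at 78.4 and 278, and 90.2 for Med12, with quartiles at 60.3 and 148. The medians of the landscape lay between the median and the upper quartile of all sites in both lists. The peaks of a pair were centred a median of 203 bp apart.

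By position the sites fell into groups, measured from the end of the RNAP2 peak that faces Hoxd13. The farthest group of 3 lay 715, 698 and 690 kb away, on the near side of Atp5g3. Their RNAP2 scores were 132.6, 50.1 and 82.49 and their Med12 scores 123.94, 81.38 and 85.76. None of these RNAP2 scores exceeded the median of 137 over all distal sites with both, though the first was close to it.

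The next pair lay 592 and 586 kb away. The first, RNAP2 peak 73911919-73914338 and Med12 peak 73912319-73914393, had scores of 639.83 and 414.12, and its Med12 peak ranked 128 of the 10634. Its sequence is the one with CAATAAA above. Its neighbour, 4842 bp further on, had scores of 93.41 and 79.69. An RNAP2 peak of 234.0 without Med12 lay on the far side, 604 kb away.

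A group of 3 lay 477, 463 and 458 kb away. The first had an RNAP2 score of 130.19 and a Med12 score of 155.72. The second, at 74040627-74043342, had a score of 519.34 in RNAP2 and 109.54 in Med12. The third, at 74046735-74048576, had an RNAP2 score of 358.74 and met 2 Med12 peaks with scores of 50.43 and 65.83. In this group the site with the lowest RNAP2 score had the highest Med12 score.

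A single site lay 394 kb away, with an RNAP2 peak at 74109436-74112489 and a Med12 peak at 74109419-74111215. Its scores were 555.31 and 281.89. It was followed by 3 sites that lie in a stretch dense in Med12, at 345, 286 and 274 kb. Their RNAP2 scores were 40.03, 198.5 and 111.57 and their Med12 scores 49.98, 130.7 and 304.63. The first was the weakest RNAP2 peak of the 36 in the landscape and near the foot of the whole list, at rank 20464 of 20479.

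On the Hoxd13 side of this stretch no distal site with both proteins was listed up to the intron of Lnp, 91.1 kb away. The site 46.6 kb away, between Lnp and Evx2, had the highest scores of the 15 in both lists. Its RNAP2 peak, 74456565-74459807, was 3243 bp wide with a score of 827.75, and its Med12 peak, 74457047-74459057, had a score of 692.69 and ranked 25 of the 10634. An RNAP2 peak of 73.42 lay just before it, 538 bp from the same Med12 peak and not touching it. The last site, 3.26 kb away, was the domain between Evx2 and Hoxd13 described above. It shared 154 bp with the stronger of its 2 Med12 peaks and held the other, of 976 bp, whole.

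The order of the sites by 1 score was not their order by the other. The 3 highest RNAP2 scores of the 15 belonged to the sites 46.6 kb, 3.26 kb and 592 kb away, and the 3 highest Med12 scores to those 46.6 kb, 592 kb and 274 kb away. The site at 3.26 kb combined a score of 737.29 in RNAP2 with 78.84 in Med12, and the site at 274 kb combined 111.57 with 304.63. Of the 15 sites 8 (53.3%) had a Med12 score of 100 or more, against 44.6% of all 2669 sites. In the landscape as a whole, starts included, the 3 highest RNAP2 scores were 1854.76 at Hoxd13, 1312.3 at Lnp and 1019.12 at Evx2, and the 3 highest Med12 scores were those of the sites 46.6 kb, 592 kb and 274 kb away.

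The 16 distal RNAP2 peaks without Med12 were weaker, with a median score of 69.9. Of these 5 lay in the body of Atf2 with scores from 45.01 to 86.77, 2 in Lnp and 9 between genes. The highest was the peak of 234.0 that lies 604 kb away, and the next, 105.84 at 74039169-74040391, lay 1331 bp from a Med12 peak. Another 3 missed a Med12 peak by 194, 520 and 538 bp, which shows how the overlap rule decides single members. Between 180 and 149 kb before Hoxd13 a group of 3 intergenic peaks had scores of only 49.67, 52.44 and 43.46, with no Med12 peak within 13 kb.

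Med12 alone was concentrated in 1 stretch. From 74130145 to 74311734, 376 to 195 kb before Hoxd13, 37 of the 58 Med12 peaks of the landscape lay within 182 kb. They were a median of 2464 bp apart and never more than 11391 bp. Some neighbours nearly touched, as at 74171683-74172655 and 74172694-74173673. Med12 peaks were counted as listed here and across the genome, not joined as in the RNAP2 run. The stretch was chosen after its values were seen, as the densest 200 kb of the landscape. Ordered over the genome, it was the densest of all such stretches; the second, with 20 peaks, lay on the other side of the HoxD cluster near Mtx2, and the third, with 14, lay over HoxA. No coding gene lies in it. Towards Hoxd13 the next Med12 peak came after 83939 bp, in Lnp, and on the far side after 18929 bp.

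Few of these peaks had RNAP2. Within the stretch 3 of 37 (8.11%) overlapped one of its 5 RNAP2 peaks, and in the rest of the landscape 17 of 21 (81.0%) did, against the 42.7% of all Med12 peaks given above. The 4 exceptions outside the stretch were single peaks in Atf2 and Lnp with scores of 54.19 and 67.19, and peaks 669 and 483 kb away with scores of 49.85 and 88.5. Scores in the stretch ran from 40.84, close to the floor of 40, to 304.63. Their median was 64.7, against 81.4 in the rest of the landscape and 56.8 over all Med12 peaks, and 8 of the 37 were 100 or more while 8 were under 50. A low share with RNAP2 was not particular to this stretch. Near Mtx2, in the second densest stretch, 3 of 20 Med12 peaks overlapped RNAP2, and over HoxA 10 of 14 did.

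The strongest Med12 peak of the stretch was that of the site 274 kb away, at 304.63. Next came a peak of 177.08 at 74220617-74222240 and one of 160.47 at 74250654-74252685, neither with RNAP2. Of the 37 peaks 3 overlapped the noncoding gene 4930441J16Rik, the strongest of them, 74136515-74139595, being 3081 bp wide with a score of 147.65. The peaks of the stretch had a median GC content of 41.2% against 39.7% in the rest of the landscape and 42.2% over all Med12 peaks. The median CpG ratio was lower in the stretch, 0.15, than in the rest of the landscape, 0.29, and over all Med12 peaks, 0.22. Whether copy number, mappability or the background of this library had a part in the density of peaks was not tested, as no input signal was analysed here.

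Bins of 50 kb gave the same picture. From 200 to 400 kb the 4 bins held 9, 10, 11 and 6 Med12 peaks and 1, 2, 2 and 1 RNAP2 peaks. The bins from 0 to 100 kb held 5 and 2 Med12 peaks and 3 RNAP2 peaks each. No peak of either protein was centred between 500 and 550 kb.

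Regions of equal length elsewhere placed these counts. On the other side of the cluster, telomeric of Hoxd1, 26 RNAP2 and 30 Med12 peaks were listed, with 7 distal sites that had both. In front of Hoxa13 there were 32 RNAP2 and 27 Med12 peaks and 15 such sites. The digit landscape, with 36, 58 and 15, had the same number of distal sites with both as the HoxA side, and more Med12 peaks than either of the other regions. The share of Med12 peaks that met RNAP2 was 34.5% in the landscape, 30.0% on the telomeric side and 55.6% in front of Hoxa13. Each region is 1 observation, so no difference between them was tested.

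Other genes of limb patterning were counted as a list. RNAP2 was at the start of 16 of 22, against 40.0% of all coding genes, and Med12 at that of 5, against 8.20%. The 5 were Gli2, Hand2, Sall1, Tbx3 and Epha7. Hand2, which codes for a factor upstream of hedgehog signalling in the limb, had a score of 272.24 in Med12, above any of the 3 start peaks of the 7 genes. Shh, the signal of the posterior limb margin, had neither protein at its start, nor had Gli1, Grem1, Fmn1, Fgf8 and Jag2. Of the posterior HoxA list all 5 had RNAP2 and 2, Hoxa9 and Hoxa11, had Med12, so a Med12 peak was listed at neither Hoxa13 nor Hoxd13.

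The label of the tissue was checked against marker genes. RNAP2 was at the start of 9 of 10 genes of distal limb mesenchyme, all but Lhx2, and of 4 of 4 proximal limb genes, including Meis1, where 40.0% of all coding genes had it. It was at none of 5 ectoderm genes and none of 4 blood genes, and at 1 of 5 muscle genes (Pax3), 1 of 4 endothelial genes (Kdr) and 1 of 3 neural genes (Neurog2). Med12 was at 3 of the distal genes, 1 of the proximal genes and none of the others; with 8.20% of all coding genes having it, a count of 0 in lists this short is near the background and does not bear on the tissue. The lists name whole tissue types, and fewer cells of a type and less RNAP2 per cell cannot be told apart in such bulk samples.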

How the data were processed

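ChIP-seq was done on distal forelimbs at E12.5 per the labels and the study's methods, while the series' design text gives E11.5. The antibodies were Abcam ab5131 (RNAP2) and Bethyl A300-774A (Med12). The authors removed the first base of each read, aligned with Bowtie to mm9, dropped redundant reads and ran MACS 1.4.1 on each library; the settings listed name no control. Each deposited list gives positions and the MACS score, 10 times −log10 of a p-value. Scores can tie (311 RNAP2 peaks have 3100). The stated p-value setting is 1e-05, while both lists hold scores down to 40, or 1e-04; peaks under a score of 50 were kept, and an alternative leaves them out. The read depth at a position is not in the lists, so wide or dense peaks cannot be set against it.

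Peaks were placed on GENCODE vM1, whose build has the coordinates of mm9, with Python 3.11.15 and numpy 2.4.6, and overlap counts were checked with bedtools 2.31.1. A start was the outermost annotated start of a gene, taken with 1000 bp on each side, an overlap was 1 bp or more, and distal peaks were those away from any annotated start by that distance. Overlap, cover and window counts were tested on simulated lists. There is no test, since each antibody has 1 library. Named were the 7 genes, all genes of the landscape, all distal sites with both proteins, the 3 highest peaks of each list, the genes nearest in cover to Hoxd13, and lists of neighbours, patterning genes and markers. The members and lists were chosen with earlier results of these data known. Sequences were read from the NCBIM37 genome. Alternatives varied the score, the overlap, the distance to starts and the windows.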

Additional observations from a re-analysis of the deposited data

How the results depend on the processing

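Of 43 alternatives over 12 values, 29 left the value within its interval or within 1.5 times of it and 14 did not. A score of 100 or more left 18 RNAP2 and 14 Med12 peaks in the landscape, 8 distal sites with both, 57.1% of Med12 peaks overlapping RNAP2, 0 genes with Med12 at the start, 0% of the posterior HoxD block under Med12 and 9 Med12 peaks in the densest 200 kb. With that score 2.03% of windows held as many RNAP2 peaks as the landscape and 0% as many Med12 peaks; on chromosome 2 alone the shares were 1.41% and 0.469%. Med12 covered the outermost start itself at 1 gene, Hoxd11, where that start is noncoding, and lay within 5 kb at 6. At Lnp the Med12 peak covered starts of coding transcripts that lie inside the outermost start. The densest 100 kb held 22 Med12 peaks. RNAP2 stayed at 7 of 7 starts in every alternative run, and the run over the cluster stayed between 41.4 and 58.8 kb. The alternatives on the densest stretch and the run were chosen after seeing the data. Except where a stricter score or a shorter stretch removes peaks by construction, the cause was not tested. The lists give no read depth at a position, which limits any reading of a missing peak. No paired analysis was possible because the groups share no replicate: RNAP2 and Med12 were each measured in a single library.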
